A study of Mus musculus with 14 samples.

Results

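The genes described here are 39 mouse genes of S phase and DNA replication, taken by gene symbol from the 24675 probe sets of the array that carry 1 symbol. All 39 had a probe set, and 38 of them were among the 15873 genes that passed the filter on low values (a log2 value at or above the 40th percentile of the array on at least 3 of the 14 arrays). These 38 were at or above that percentile on all 14 arrays. Fen1, the nuclease that trims flaps from Okazaki fragments, was listed between 3.39 and 3.93 on the 14 arrays, did not pass the filter and was not tested.

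Each sorted cell sample came from an individual mouse and was hybridised to an Affymetrix Mouse Gene 2.0 ST array, and all levels below are log2 values. Atg7KO mice carried Atg7(fl/fl) and Lgr5-EGFP-IRES-CreERT2, and WT mice carried Lgr5-EGFP-IRES-CreERT2 alone. Mice of both genotypes were given tamoxifen for 5 days in a row and examined 1 month afterwards, so the WT cells also carried the Cre and had seen the drug. CD24-low crypt cells were sorted by EGFP into a High gate, labelled as intestinal stem cells, and a Low gate, labelled as their transit amplifying progenitors. There were 3 High samples of the knockout, Atg7KO-High-356, Atg7KO-High-348 and Atg7KO-High-386, and 3 of wild type, WT-High-388, WT-High-411 and WT-High-412. The 4 Low samples of the knockout were Atg7KO-Low-356, Atg7KO-Low-353, Atg7KO-Low-387 and Atg7KO-Low-386, and the 4 of wild type were WT-Low-341, WT-Low-407, WT-Low-409 and WT-Low-411. Values of a group are listed below in this order of its samples, which has no meaning of its own. Cre is made from Lgr5 and acts only in cells that express it or descend from them, and the labels give neither age nor sex. From each sample 1 ng of total RNA was amplified before hybridisation.

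In G1 the origin recognition complex, with Cdc6 and Cdt1, loads the Mcm2 to Mcm7 ring onto DNA, and at the start of S phase Cdc45 and the GINS proteins join the ring to make the working helicase. Polymerases, the Pcna clamp and its loader then copy the strands, ribonucleotide reductase supplies deoxynucleotides, and Slbp, Uhrf1 and the Chaf1 proteins serve the copying of chromatin. Many of these genes are transcribed in waves driven by E2F factors as cells enter the cycle. In the intestinal crypt both the Lgr5 stem cells at the base and the transit amplifying cells above them divide.

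The labels were checked first. Atg7, an enzyme needed to form autophagosomes, stood at 6.14 ± 0.23 in Atg7KO-High and 6.79 ± 0.04 in WT-High samples (SD, n = 3 each), and at 5.89 ± 0.20 in Atg7KO-Low and 6.91 ± 0.43 in WT-Low samples (SD, n = 4 each), with no overlap in either gate. Knockout arrays also lay below all WT arrays for 15.2% of all tested genes in the High gate and 1.69% in the Low gate. Atg7 itself did not pass an adjusted p under 0.05 in either gate (limma adjusted p = 0.208 in High and 0.166 in Low). Which exons of Atg7 were floxed is not given in the sources used here, so its probe set may read exons that remain. Lgr5 was higher in the High than in the Low gate by 3.32 in Atg7KO and by 3.52 in WT (limma adjusted p = 0.000138 and 0.000247). In the High gate 15 of 15 tested goblet cell markers fell in Atg7KO (against 6.44% of all genes) and 12 of 15 in WT (against 1.22%). The goblet list was chosen with earlier results of these data known, so it is not an independent check of the labels. The number of arrays, 3 or 4 a group, limits the precision of every value below.

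The mean of the 38 replication genes on an array gave the first view of the samples. It was 6.99, 7.29 and 7.30 in Atg7KO-High samples, against 7.27, 7.82 and 7.62 in WT-High samples. In the Low gate it was 7.34, 7.31, 7.00 and 7.25 in Atg7KO samples, against 7.17, 7.34, 6.95 and 7.01 in WT samples. WT-High-411 and WT-High-412 thus had the 2 highest means of all 14 arrays, while WT-High-388 lay within the range of the Atg7KO-High samples. WT-High-411 held the highest value of its group for 31 of the 38 genes, and WT-High-388 the lowest for 35. Atg7KO-High-356 was the lowest of its group for 23 genes, and Atg7KO-Low-387 for 24. The genes therefore varied together from sample to sample within a group, and their median within-group SD, pooled over the 4 groups, was 0.31, against 0.26 for all tested genes. The spread ran from 0.11 for Pcna and 0.13 for Slbp to 0.62 for Gins3. These are bulk samples, so fewer cells in S phase and less replication mRNA per cell cannot be told apart.

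**Figure D1:**
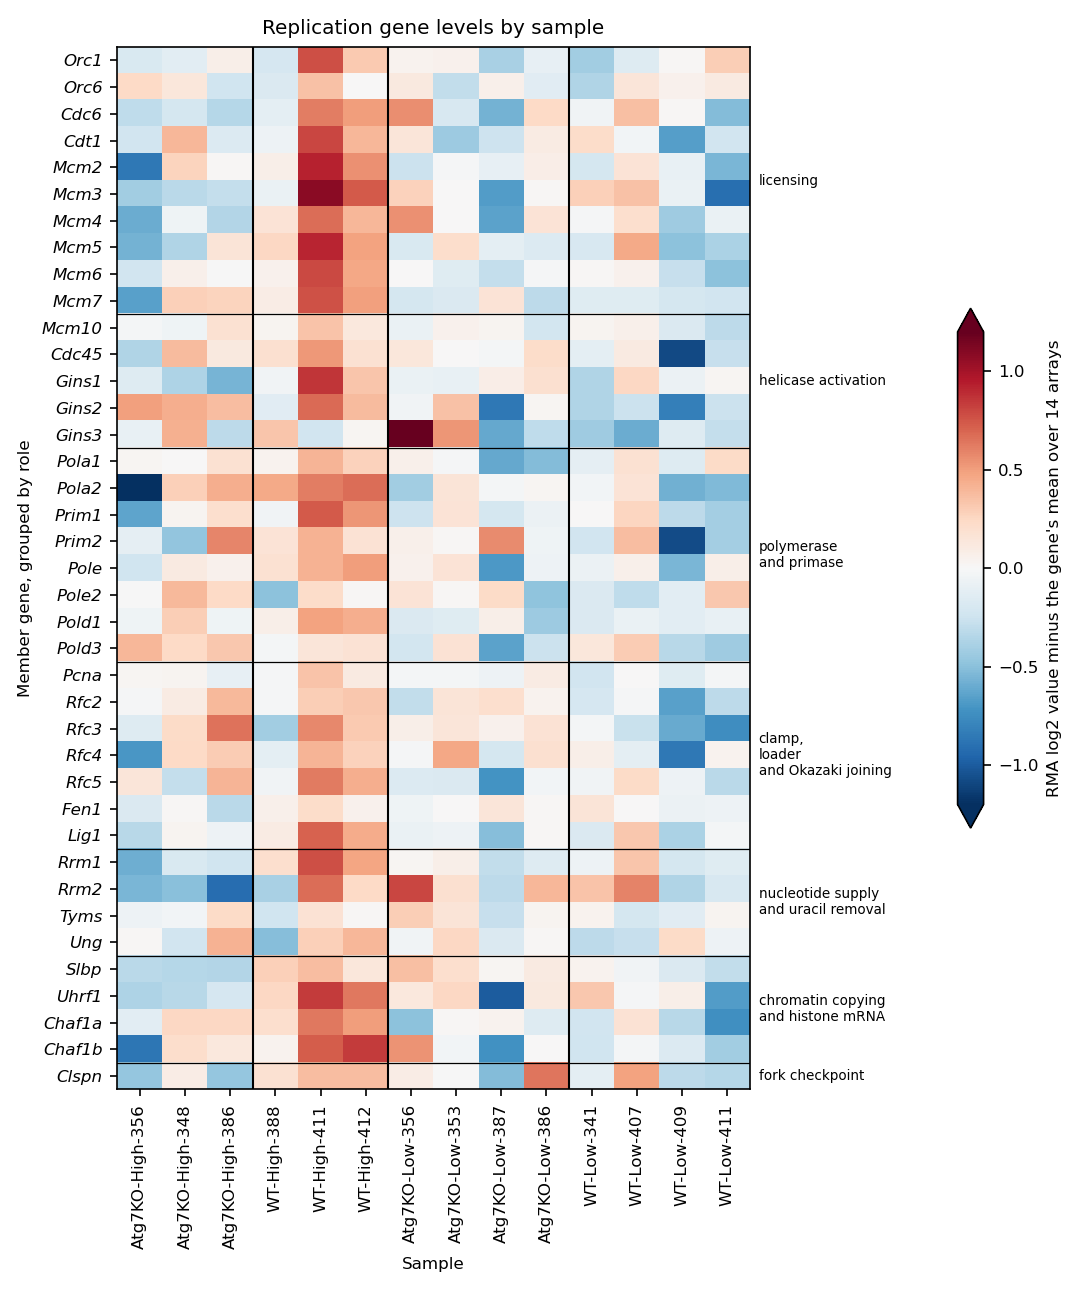
Log2 value of each of the 39 genes (down the page, grouped by role) on each of the 14 arrays (across, by group), centred on the gene's mean. Atg7KO-High-356, with a mean of 6.99 over the 38 tested genes, holds mostly values below the gene's mean, and WT-High-411 and WT-High-412, with means of 7.82 and 7.62, hold mostly values above it.

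The arrays also differed in the spread of all their values. Over all its values an array had an SD of 1.90, 1.93 and 1.98 in Atg7KO-High samples, against 1.99, 2.06 and 2.05 in WT-High samples. The 3 Atg7KO-High arrays thus had narrower values than each WT-High array, and within both groups the array with the lowest SD also had the lowest mean of the replication genes. In the Low gate the SD was 1.98 to 2.04 in Atg7KO and 1.90 to 2.06 in WT samples. The part of array spread in the results below was not tested, and values with it as a covariate are given where they move a result.

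**Figure D2:**
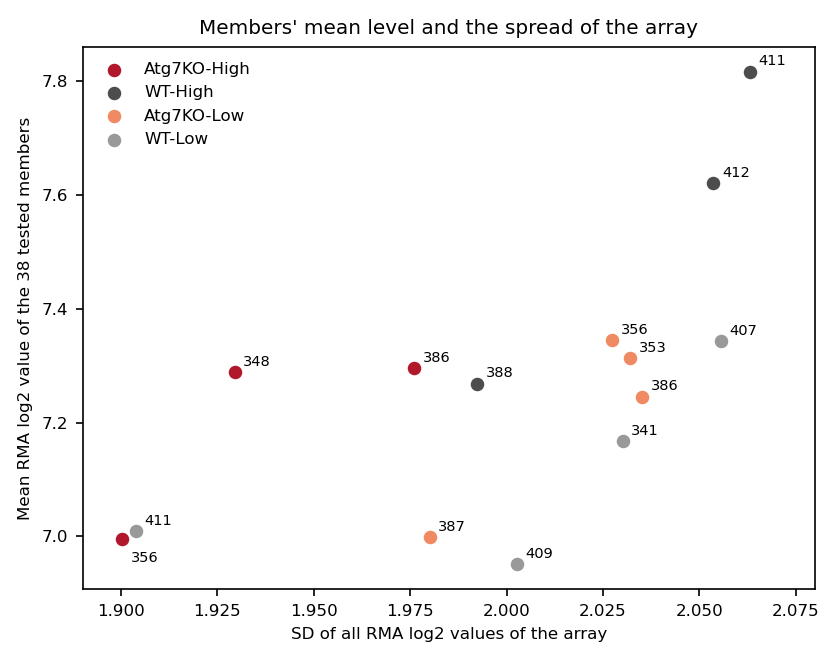
Mean log2 value of the 38 tested replication genes (vertical) against the SD of all values on the same array (horizontal), 1 point per sample, coloured by group. The Atg7KO-High points lie at an SD of 1.90 to 1.98 and the WT-High points at 1.99 to 2.06 (horizontally apart), while vertically WT-High-388, at 7.27, lies between Atg7KO-High samples at 6.99 and 7.30.

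The first comparison asks whether High gate cells of Atg7KO mice carry other levels of these mRNAs than those of WT mice. Most replication genes read lower in Atg7KO-High than in WT-High samples, but no single gene passed the test. The difference was below 0 for 32 of the 38 genes (84.2%, against 53.8% of all tested genes) and above 0 for 6 (against 46.2%), and the median was -0.38 on the log2 scale, against -0.03 over all tested genes. limma called 0 of the 38 at adjusted p under 0.05, where 0.00630% of all genes were called lower and 0.00630% higher. At an unadjusted p under 0.05, 15 of the 38 were lower (39.5%, against 9.88% of all genes) and 0 were higher (against 5.99%). The 3 Atg7KO-High arrays lay below all WT-High arrays for 13 genes (34.2%, against 15.2% of all genes) and above them for 1, Pold3 (against 10.2%).

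Slbp binds the stem-loop that ends replication-dependent histone mRNAs and had the smallest p. Its values were 7.54, 7.52 and 7.51 in Atg7KO-High samples, against 8.15, 8.24 and 8.00 in WT-High samples. The groups do not overlap, and the gap is wider than the spread within either. The difference was -0.61 (SE 0.14, 95% interval -0.91 to -0.30, limma adjusted p = 0.131), a fold of 0.656. Rrm1, the large subunit of ribonucleotide reductase, read 7.60, 8.00 and 7.94 in Atg7KO-High and 8.39, 8.96 and 8.66 in WT-High samples. It did not overlap either, with a difference of -0.82 (SE 0.19, 95% interval -1.23 to -0.41, limma adjusted p = 0.131). Gins1, a subunit of the GINS complex, read 6.86, 6.64 and 6.45 in Atg7KO-High and 6.97, 7.87 and 7.34 in WT-High samples. Its groups come close only through Atg7KO-High-356 and WT-High-388, and the difference was -0.74 (SE 0.22, limma adjusted p = 0.173).

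Among roles with several genes, the median was lowest for chromatin and next for licensing. The difference was below 0 for 10 of 10 licensing genes, and their median was -0.56. Mcm3, a subunit of the helicase ring, had the most negative difference of the 38 genes, -0.92 (SE 0.34), with 6.98, 7.08 and 7.11 in Atg7KO-High and 7.31, 8.48 and 8.13 in WT-High samples. Mcm5, another ring subunit, read 6.52, 6.73 and 7.24 in Atg7KO-High and 7.34, 8.00 and 7.57 in WT-High samples, a difference of -0.80 (SE 0.26). For both genes the groups do not overlap, and in WT-High the sample nearest to the knockouts was WT-High-388. The other ring subunits differed by -0.75 (Mcm4), -0.71 (Mcm2), -0.49 (Mcm6) and -0.48 (Mcm7), and the loader Cdc6 by -0.62. Orc6, of the origin recognition complex, differed by only -0.02, with a 95% interval of -0.43 to 0.40, and Orc1 and Cdt1 by -0.38 each.

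Promoters were read for the 33 members with an entry in the RefSeq promoter table (GRCm38.p6, 250 bases before to 50 after the gene's start), not for Mcm4, Gins1, Gins2, Prim2, Pole and Rfc2. The letters searched, on both strands, were TTTCCCGC, TTTCGCGC, TTTGCCGC and TTTGGCGC for E2F, CCAAT for the CCAAT box and TTTGAA for the cell cycle homology region. E2F letters stood in 16 of the 33 genes (48.5%), against 2.605% of all 27025 genes with a window. CCAAT stood in 20 of 33 (60.6%, against 41.1% of genes) and TTTGAA in 4 of 33 (12.1%, against 20.2%). The knockout difference in the High gate had a median of -0.43 over the 16 tested genes with E2F letters and -0.29 over the 16 without them. It was below 0 for 13 genes with and 14 without the letters, and the ranges overlapped (-0.92 to 0.30 and -0.83 to 0.06). That difference minus the one in the Low gate had a median of -0.49 with E2F letters and -0.57 without. With CCAAT the High gate median was -0.49 over 20 genes and without CCAAT -0.26 over 12. These ranges overlapped too (-0.92 to 0.08 and -0.74 to 0.30). A link between the letters and the difference was not tested.

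Slbp and Rrm1, which had the lowest p in the High gate, held CCAAT but none of the E2F letters in this window, and are shown beside the ring subunits Mcm5 and Mcm6, which held both. Not every ring subunit held E2F letters, as Mcm2 had none. Each sequence below ends at the base before the annotated start of its gene and is read 5′ to 3′ on the gene's strand. CCAAT is in capitals for Slbp and Rrm1, and only the E2F letters are in capitals for Mcm5 and Mcm6. Over the whole window Mcm5 held 3 and Mcm6 held 2 CCAAT matches, which are not marked. The part of the window past the start is not printed, so the Mcm5 sequence does not show all 3 of its matches. Slbp lies on the minus strand at chr5:33652575-33652824, Rrm1 on the plus strand at chr7:102441445-102441694, Mcm5 on the plus strand at chr8:75109259-75109467 and Mcm6 on the minus strand at chr1:128359706-128359955.
Slbp: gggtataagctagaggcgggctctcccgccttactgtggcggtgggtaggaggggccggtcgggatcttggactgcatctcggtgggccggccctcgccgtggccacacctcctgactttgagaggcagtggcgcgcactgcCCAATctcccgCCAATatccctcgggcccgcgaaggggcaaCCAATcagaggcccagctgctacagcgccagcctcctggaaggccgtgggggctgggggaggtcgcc
Rrm1: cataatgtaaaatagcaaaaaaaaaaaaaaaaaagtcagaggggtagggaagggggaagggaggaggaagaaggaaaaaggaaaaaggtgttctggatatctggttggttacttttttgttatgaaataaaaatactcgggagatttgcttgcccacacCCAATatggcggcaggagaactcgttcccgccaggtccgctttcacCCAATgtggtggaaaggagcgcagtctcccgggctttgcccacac
Mcm5: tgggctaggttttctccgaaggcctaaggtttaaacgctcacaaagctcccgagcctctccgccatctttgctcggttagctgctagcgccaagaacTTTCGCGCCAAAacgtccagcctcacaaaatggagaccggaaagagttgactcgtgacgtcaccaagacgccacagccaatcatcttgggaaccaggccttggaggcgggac
Mcm6: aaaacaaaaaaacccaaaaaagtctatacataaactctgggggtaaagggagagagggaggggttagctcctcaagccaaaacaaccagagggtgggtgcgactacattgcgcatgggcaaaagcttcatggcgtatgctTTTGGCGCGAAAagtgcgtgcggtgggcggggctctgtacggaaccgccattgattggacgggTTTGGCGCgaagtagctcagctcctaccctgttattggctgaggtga
In Slbp the 3 CCAAT matches began 108, 97 and 67 bases before the start, and in Rrm1 the 2 matches began 91 and 45 bases before it. In Mcm5 the capitals are 2 overlapping matches, 1 on each strand, that began 112 and 108 bases before the start. In Mcm6 such a pair began at 110 and 106 bases, with a single match at 47. A match of letters describes the sequence and says nothing of binding in these cells.

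The 4 genes for chromatin differed by a median of -0.66, each of them below 0. Besides Slbp these were Uhrf1 (-0.87), which binds hemimethylated CpG sites behind the fork and helps to restore methylation, and Chaf1b (-0.71) and Chaf1a (-0.32), subunits of the histone chaperone CAF-1. Uhrf1 read 7.76, 7.79 and 7.92 in Atg7KO-High and 8.37, 8.96 and 8.76 in WT-High samples, with no overlap. In the nucleotide group Rrm2, the small subunit of ribonucleotide reductase, differed by -0.83 (SE 0.32), with 6.59, 6.64 and 6.22 in Atg7KO-High and 6.75, 7.81 and 7.38 in WT-High samples. Tyms, which makes thymidylate, and Ung, which removes uracil from DNA, differed by 0.06 and 0.01, with 95% intervals of -0.31 to 0.43 and -0.51 to 0.53. Within that group, then, the reductase subunits had differences below those of the other 2 genes, though none was called.

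Genes of the fork itself had medians nearer to 0. Polymerase and primase genes had a median of -0.26 over 8 genes and clamp, loader and joining genes one of -0.20 over 6. Pola2, a subunit of polymerase alpha, differed by -0.74, Prim1, the catalytic subunit of primase, by -0.54, and Lig1, the ligase that joins Okazaki fragments, by -0.54. Pcna, the sliding clamp, read 11.5, 11.5 and 11.3 in Atg7KO-High and 11.4, 11.8 and 11.6 in WT-High samples, a difference of -0.16 (SE 0.14, 95% interval -0.45 to 0.13) with groups that overlap. Pole2 and Pold3, accessory subunits of polymerases epsilon and delta, had the most positive differences, 0.30 and 0.22. The other 8 of these genes, Pola1, Prim2, Pole (the catalytic subunit of polymerase epsilon), Pold1 (that of polymerase delta) and the clamp loader subunits Rfc2, Rfc3, Rfc4 and Rfc5, ran from -0.39 for Pole to 0.08 for Rfc3. Helicase activation genes had a median of -0.14 over 5 genes, with Gins1 far below Mcm10 (-0.14), Cdc45 (-0.26), Gins3 (-0.03) and Gins2 (0.12). Clspn, the adaptor through which stalled forks activate Chk1, differed by -0.58 and its groups do not overlap.

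**Figure D3:**
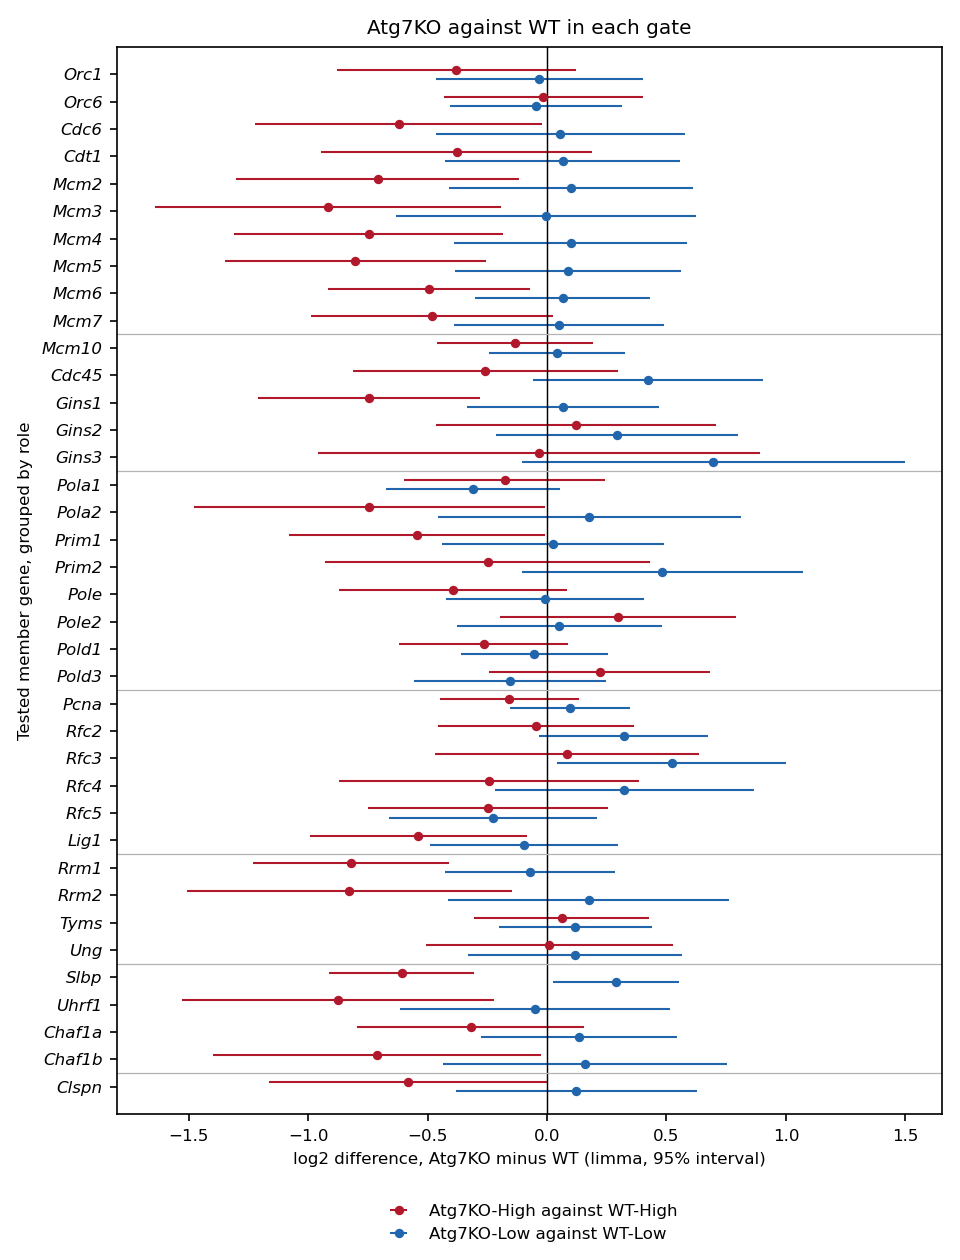
Log2 difference, Atg7KO minus WT, with its 95% limma interval for each of the 38 tested genes (down the page, grouped by role), in the High gate and in the Low gate. In the High gate 32 of 38 points lie below 0 with a median of -0.38, and in the Low gate 11 of 38 lie below 0 with a median of 0.08.

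The size of this shift moved when single arrays were left out or the values were scaled anew. The median was -0.24 without Atg7KO-High-356, -0.21 without WT-High-411, -0.13 without both (added after the data were seen), -0.23 after a further quantile normalization, -0.22 after cyclic loess and -0.092 with array SD as a covariate. In this order the 15 genes lower at an unadjusted p under 0.05 became 7, 4, 3, 8, 8 and 3 (6 without WT-High-412), and the 0 higher became 0, 0, 0, 1, 1 and 2. The 32 of 38 genes below 0 became 29, 30, 28, 28, 27 and 24. The shares of all genes were not computed in these fits, so these counts have no background beside them. With array weights limma called 5 of the 38 lower, namely Mcm3, Gins1, Rrm1, Slbp and Uhrf1, where 465 genes in all were called lower and 238 higher.

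Markers of other cells also had differences below 0 in the same comparison. The mean of the 15 goblet cell markers was 7.17 to 8.86 in Atg7KO-High and 8.64 to 9.04 in WT-High samples, with negative differences for 15 of 15 and a median of -0.92. That of the 14 Paneth cell markers was 7.80 to 8.84 in Atg7KO-High and 9.09 to 10.1 in WT-High samples, with negative differences for 13 of 14 and a median of -1.32. The 18 enterocyte markers had a median difference of -0.52. Medians were -0.06 for 15 enteroendocrine, 0.18 for 9 tuft cell, -0.11 for 8 leukocyte, 0.06 for 8 stromal and 0.07 for 16 Lgr5 stem cell markers. limma called 0 genes of these lists, with 8 goblet, 9 Paneth, 6 enterocyte and 1 stem cell marker lower and 2 tuft cell markers higher at an unadjusted p under 0.05. In this order the lower ones were 53.3%, 64.3%, 33.3% and 6.25% of their lists, against 9.88% of all genes. The tuft cell markers were 22.2% of theirs, against 5.99% of all genes higher. The markers of smallest p were Clca1 (-1.77) for goblet cells, Ang4 (-2.30) for Paneth cells and Fabp1 (-1.41) for enterocytes. The part of other cell types in the replication result was not tested.

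Other genes of the cycle read lower as well. Of 47 tested further replication genes that are not among the 39, 34 were below 0 (72.3%, against 53.8% of all genes), and their median was -0.22. Of these 0 were called, with 10 lower (21.3%, against 9.88% of all genes) and 1 higher (2.13%, against 5.99%) at an unadjusted p under 0.05. Samhd1, which degrades deoxynucleotides, differed by -0.78 and Rfc1, the large subunit of the clamp loader, by -0.61 (limma adjusted p = 0.131 for each). The difference was below 0 for 28 of 28 tested genes of G2 and M phase, their median was -0.47, and 0 were called (16 lower, or 57.1%, and 0 higher at an unadjusted p under 0.05). Among them the mitotic kinases Ttk and Plk1 had the smallest p. Mki67, the gene of the proliferation marker Ki-67, read 9.28, 9.14 and 9.29 in Atg7KO-High and 9.80, 9.37 and 9.50 in WT-High samples, a difference of -0.32 (SE 0.16) with no overlap.

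The second comparison asks the same of the Low gate. There the median of the replication genes lay slightly above 0 for Atg7KO-Low minus WT-Low samples, and no gene passed the test. Differences were above 0 for 27 of 38 genes (71.1%, against 50.3% of all genes) and below 0 for 11 (against 49.7%), and the median was 0.08, against 0.00 over all genes. limma called 0 of the 38, where 0.00630% of all genes were called higher and 0% lower. At an unadjusted p under 0.05, 2 were higher (against 3.86% of all genes) and 0 lower (against 3.40%). The arrays did not overlap for 1 gene, higher in Atg7KO-Low (against 1.71%), and for 0 genes lower (against 1.69%).

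Slbp, the gene with the lowest p of the High gate, pointed the other way in the Low gate. It read 8.22, 8.07, 7.88 and 7.97 in Atg7KO-Low samples, against 7.91, 7.82, 7.69 and 7.57 in WT-Low samples. The groups overlap only through Atg7KO-Low-387 and WT-Low-341, and the difference was 0.29 (SE 0.12, limma adjusted p = 0.665). Rfc3, a small subunit of the clamp loader, read 7.43, 7.50, 7.41 and 7.53 in Atg7KO-Low and 7.33, 7.09, 6.76 and 6.61 in WT-Low samples. It was the gene without overlap, with a difference of 0.52 (SE 0.22, limma adjusted p = 0.665). Rfc2, a further loader subunit, differed by 0.32 (SE 0.17, limma adjusted p = 0.717), and its groups overlap.

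Rrm1, Gins1 and the ring subunits, with negative differences in the High gate, lay near 0 in the Low gate. Rrm1 differed by -0.07, with a 95% interval of -0.43 to 0.29, and Gins1 by 0.07, with one of -0.33 to 0.47. Over the 6 ring subunits the differences ran from -0.01 for Mcm3 to 0.10 for Mcm2 and Mcm4, and Mcm5 had a 95% interval of -0.38 to 0.56. The most negative difference was -0.31, for Pola1, the catalytic subunit of polymerase alpha, and the most positive 0.70, for Gins3. That value of Gins3 rests on Atg7KO-Low-356, at 7.90, against 5.57 to 6.72 in the other Atg7KO-Low samples and 5.59 to 6.03 in WT-Low samples.

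Other cycle genes and markers in the Low gate did not share one direction, and limma called 0 genes of any of these lists. Further replication genes had a median of 0.08, with 6 higher (12.8%, against 3.86% of all genes) and 1 lower (2.13%, against 3.40%) at an unadjusted p under 0.05. The gene of smallest p was the lower one, Mcm9 (-0.73, arrays not overlapping), a relative of the ring subunits that serves in repair, followed by Dctpp1 (0.53). Genes of G2 and M phase had a median of -0.02. At an unadjusted p under 0.05, 2 of them were higher (7.14%), Cdc20 (0.46) and Ttk (0.30), and 0 lower. Mki67 read 9.09, 9.215, 8.79 and 9.28 in Atg7KO-Low and 9.34, 9.34, 9.32 and 9.45 in WT-Low samples, a difference of -0.27 (SE 0.14, limma adjusted p = 0.714) with each Atg7KO-Low array below every WT-Low array. Paneth cell markers had a median of -0.81, with 13 of 14 below 0 and 3 lower (21.4%) at an unadjusted p under 0.05, and Ang4 (-1.43) had the smallest p. The medians were -0.19 for goblet, 0.04 for enterocyte, -0.10 for enteroendocrine, -0.06 for tuft, 0.00 for leukocyte, -0.07 for stromal and 0.07 for stem cell markers. The part of other cell types in the Low gate values was not tested either.

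Whether the knockout difference itself differed between the gates was tested as an interaction. limma called 0 of the 38 genes, where 0.00630% of all genes were called higher and 0% lower. The interaction value, the High gate difference minus the Low gate difference, was below 0 for 34 of 38 genes (89.5%, against 52.9% of all genes) and above 0 for 4 (against 47.1%), and its median was -0.55, against -0.03 over all genes. Over the genes that passed the stricter filter its median was -0.18. At an unadjusted p under 0.05, 8 were below 0 (21.1%, against 8.49% of all genes) and 0 above (against 5.53%). Slbp had the lowest p, with -0.90 (SE 0.19, 95% interval -1.30 to -0.49, limma adjusted p = 0.176). Rrm1 followed with -0.75 (SE 0.25, limma adjusted p = 0.261) and Gins1 with -0.81 (SE 0.29, limma adjusted p = 0.268), and the most negative value, -1.002, belonged to Rrm2. A difference between the gates is thus not shown for any 1 gene. Other lists were below 0 in the interaction too, with 0 genes called. Genes of G2 and M phase had a median of -0.45 (28 of 28 below 0, Ttk at -0.98 and Cdc20 at -0.98 with the smallest p), and further replication genes one of -0.24 (36 of 47, Dbf4 at -0.9995 and Tipin at -1.18). The interaction value of Mki67 was -0.05 (SE 0.21). Medians were -0.70 for enterocyte (18 of 18 below 0), -0.53 for goblet (14 of 15) and -0.84 for Paneth cell markers (12 of 14), and -0.01 for enteroendocrine, 0.34 for tuft, -0.10 for leukocyte, 0.04 for stromal and 0.01 for stem cell markers. Their part in the interaction of the replication genes was not tested. The median was -0.13 with array SD as a covariate and -0.33 without Atg7KO-High-356, and the 8 genes became 3 without WT-High-411 and 15 without WT-High-388 or WT-Low-407. For these counts too the share of all genes was not computed.

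The remaining comparisons set the gates against each other within a genotype. They share samples with the 2 above, so each is given by its own values. In Atg7KO the replication genes split evenly in sign between High and Low samples, with 18 of 38 differences above 0 (against 52.1% of all genes) and 20 below (against 47.9%). The median was -0.01, against 0.02 over all genes. This balance turned with the setting: 33 of 38 were above 0 with array SD as a covariate (median 0.25) and 25 without Atg7KO-High-356 (median 0.14), whereas 25 were below 0 after median centring (median -0.11). limma called 1 of the 38, Slbp, lower (2.63%, against 6.44% of all genes) and 0 higher (against 4.48%). At an unadjusted p under 0.05, 2 genes were lower (against 14.4% of all genes) and 2 higher (against 12.6%). The arrays did not overlap for 3 genes lower in Atg7KO-High, Slbp, Rrm2 and Gins1 (against 11.8%), and for 2 higher, Gins2 and Pold3 (against 10.8%).

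Slbp fell by 0.51 on the log2 scale in Atg7KO-High against Atg7KO-Low samples (SE 0.13, 95% interval -0.80 to -0.23, limma adjusted p = 0.0244). The 3 Atg7KO-High values, 7.51 to 7.54, lay below the 4 Atg7KO-Low values, 7.88 to 8.22. This call was lost in 10 of 19 alternatives, among them array SD as a covariate (-0.32, adjusted p = 0.178), a further quantile normalization (adjusted p = 0.106), cyclic loess (0.0783) and the omission of Atg7KO-High-356, Atg7KO-High-348, Atg7KO-High-386 or Atg7KO-Low-356 (0.0709, 0.0742, 0.0513 and 0.0597). Rrm2 read 6.59, 6.64 and 6.22 in Atg7KO-High and 7.94, 7.33, 6.83 and 7.53 in Atg7KO-Low samples, a difference of -0.92 (SE 0.30, limma adjusted p = 0.0595). Pold3 read 7.70, 7.53 and 7.62 in Atg7KO-High and 7.08, 7.47, 6.66 and 7.04 in Atg7KO-Low samples, a difference of 0.55 (SE 0.20, limma adjusted p = 0.0926). Neither gene was called, although the groups do not overlap for either. Rrm2 was called with the stricter filter (adjusted p = 0.0466) and without Atg7KO-Low-387 (0.0338), and Pold3 after a further quantile normalization (0.0207), after cyclic loess (0.0260), with array SD as a covariate (0.0343) and without Atg7KO-Low-353 (0.0409).

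In WT nearly every replication gene read higher in the High than in the Low gate. The difference was above 0 for 37 of 38 genes (97.4%, against 54.7% of all genes), with Pole2 the exception at -0.02 (45.3% of all genes were below 0), and the median was 0.48, against 0.03 over all genes. Over the genes that passed the stricter filter the median was 0.09. limma called 0 of the 38, where 1.22% of all genes were called higher and 1.22% lower. At an unadjusted p under 0.05, 19 were higher (50%, against 8.88% of all genes) and 0 lower (against 5.91%). The 3 WT-High arrays lay above all WT-Low arrays for 10 genes (26.3%, against 9.97% of all genes) and below them for 0 (against 6.52%). By role the medians ran from 0.12 for nucleotide genes through 0.44 for clamp and loader genes to 0.58 for licensing and 0.69 for chromatin genes.

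Chaf1a, a subunit of CAF-1, had the lowest p. It read 7.31, 7.74 and 7.61 in WT-High samples, against 6.88, 7.29, 6.78 and 6.37 in WT-Low samples, a difference of 0.73 (SE 0.21, limma adjusted p = 0.0850). The groups do not overlap, though WT-High-388 lay just above WT-Low-407. Mcm6 read 8.85, 9.58 and 9.26 in WT-High and 8.81, 8.85, 8.52 and 8.30 in WT-Low samples, a difference of 0.61 (SE 0.19, limma adjusted p = 0.107). Mcm5 read 7.34, 8.00 and 7.57 in WT-High and 6.89, 7.54, 6.59 and 6.70 in WT-Low samples, a difference of 0.70 (SE 0.24, limma adjusted p = 0.158). For Mcm5 the groups overlap and for Mcm6 they touch, in each case through WT-High-388 and WT-Low-407. The 19 genes at an unadjusted p under 0.05 became 2 without WT-High-411, 10 without WT-High-412, 11 without WT-Low-409 and 10 with array SD as a covariate. The share of all genes at this p was not computed in these fits. With array weights limma called 6 of the 38 higher, where 642 genes in all were called higher and 559 lower.

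**Figure D4:**
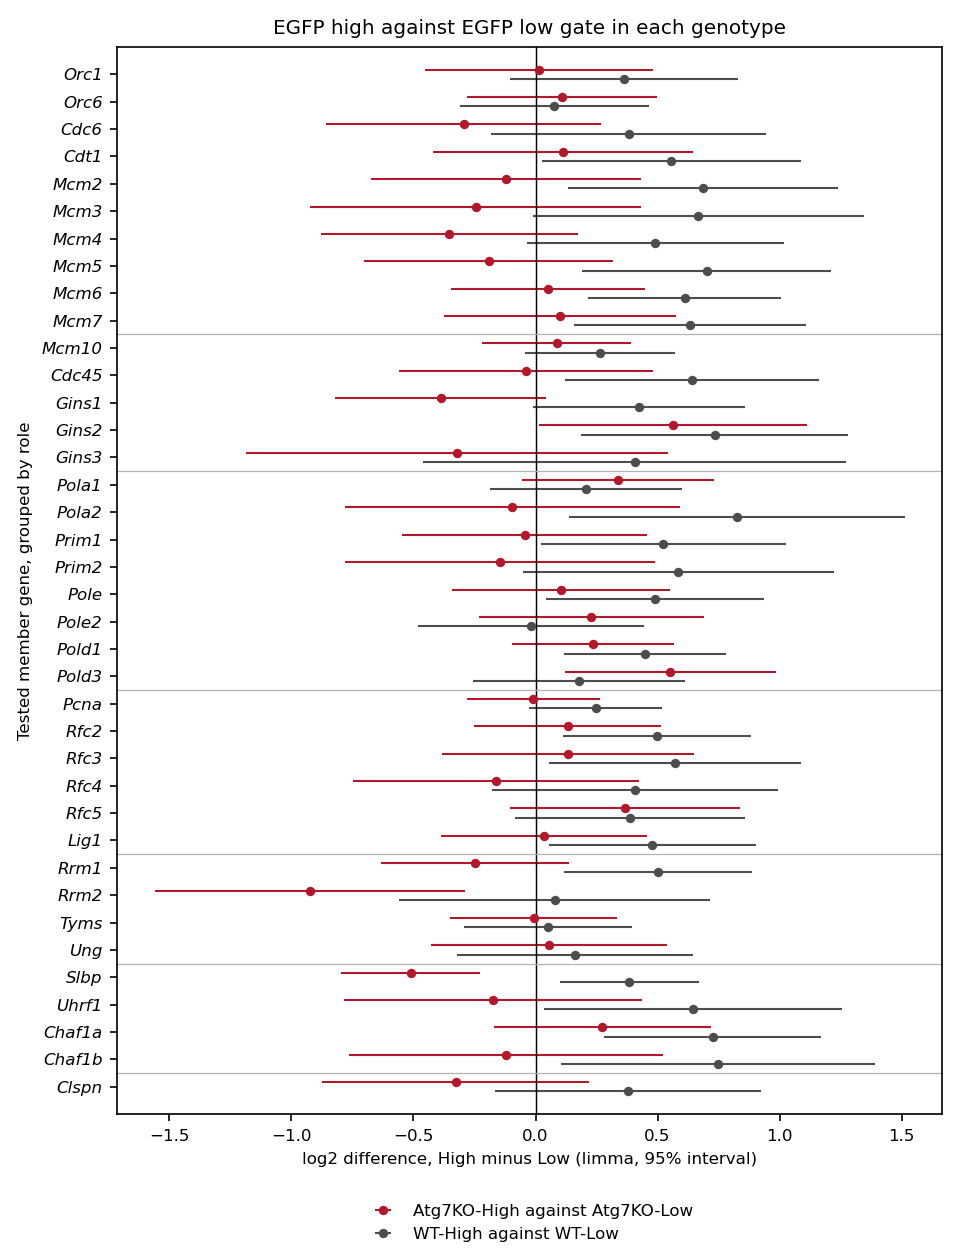
Log2 difference, High minus Low gate, with its 95% limma interval for each of the 38 tested genes (down the page, grouped by role), in Atg7KO and in WT. In Atg7KO 18 of 38 points lie above 0 with a median of -0.01, and in WT 37 of 38 lie above 0 with a median of 0.48.

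**Figure D5:**
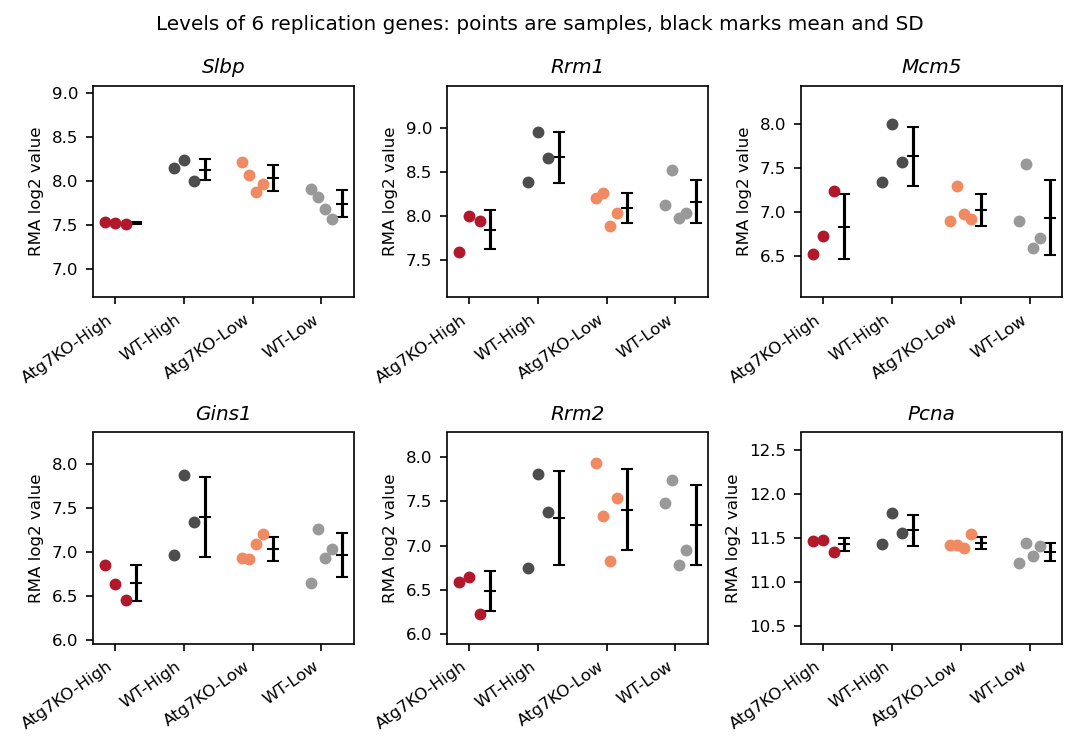
Log2 values of Slbp, Rrm1, Mcm5, Gins1, Rrm2 and Pcna on the single arrays of each group, 1 point per sample, with the group's mean and SD as black marks. Slbp lies at 7.51 to 7.54 in Atg7KO-High and at 8.00 to 8.24 in WT-High samples, and Pcna overlaps among all groups.

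Of the further replication genes a few changed between the gates. In Atg7KO 4 of the 47 fell in the High gate (8.51%, near the 6.44% of all genes) and 0 rose (against 4.48%). The 4 were Samhd1 (-1.21), Dck (-1.10), which phosphorylates deoxynucleosides, Dbf4 (-0.78), which activates the kinase Cdc7, and Rfc1 (-0.51). In WT Timeless (0.93), of the fork protection complex, and Dctpp1 (0.91), which clears non-canonical deoxynucleotides, rose and Samhd1 (-0.72) fell, 2 and 1 of 47 (4.26% and 2.13%, against 1.22% of all genes each way). Of the 28 G2 and M phase genes, Cenpf (0.58) rose and Plk1 (-0.67) fell in Atg7KO. That is 3.57% each way, below the 4.48% and 6.44% of all genes. In WT Ttk (0.66) rose (3.57%, against 1.22% of all genes) and 0 fell. Mki67 did not pass in either genotype, with 0.14 in Atg7KO and 0.20 in WT.

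Markers of other cells differed between the gates in both genotypes. Of all tested genes limma called 6.44% lower and 4.48% higher in Atg7KO, and 1.22% each way in WT. Goblet cell markers had a median of -2.29 in Atg7KO and -1.46 in WT. Enteroendocrine markers were below 0 for 15 of 15 in each genotype, with medians of -1.80 in Atg7KO (10 fell) and -1.94 in WT (5 fell). Enterocyte markers had medians of -1.02 in Atg7KO (17 of 18 below 0, 9 fell) and -0.37 in WT (15 of 18, 1 fell), and Paneth cell markers of -0.91 in Atg7KO (12 of 14, 5 fell) and -0.43 in WT (10 of 14, 0 called and 2 lower at an unadjusted p under 0.05). Lgr5 stem cell markers had medians of 1.22 in Atg7KO (13 of 16 rose) and 1.24 in WT (14 of 16 rose). Tuft, leukocyte and stromal markers had medians of 0.11, 0.02 and -0.06 in Atg7KO and of 0.01, 0.01 and -0.08 in WT, with 1 tuft cell marker higher and 1 lower in Atg7KO as their called genes. The part of these cells in the gate differences of the replication genes was not tested.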

How the data were processed

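Total RNA of 14 sorted cell samples was hybridised to 1 array each. Values were deposited as log2 per probe set. The submitters' processing notes name Affymetrix Expression Console and RMA, with which the authors made these log2 values. RMA corrects background, quantile normalizes probes and summarises them per probe set, and it can narrow large differences. The sources used here give no tool version. Values ran from 1.65 to 13.8. Of 25429 probe sets 24675 had 1 gene symbol, 0 had several and 754 were unnamed and not used. Each gene had 1 probe set. The highest correlation between 2 arrays was 0.991, and no arrays were treated as duplicates.

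Groups came from the sample titles. Genes at or above an array's 40th percentile on at least 3 arrays were tested, 15873 in all. Means of the 4 groups were fitted with limma 3.58.1 (lmFit, eBayes) in R 4.3.3. The fit had 10 residual and 4.54 prior degrees of freedom. P-values are two-sided and adjusted (Benjamini-Hochberg) over all genes tested in each of 5 comparisons, and called at adjusted p under 0.05. SE and 95% intervals come from this fit, and the script was tested on simulated data. P-values rest on the spread between samples, which were fitted as independent. Title numbers 356, 386 and 411 recur in both gates. The labels do not say whether these numbers name mice, so the main fit used no pairing. No gene set test was run. Promoters came from RefSeq's table and were searched in Python 3.11.15.

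The members and the gene lists (further replication genes, G1/S regulators, G2 and M phase genes and markers of goblet, Paneth, enterocyte, enteroendocrine, tuft, leukocyte, stromal and Lgr5 stem cells) were chosen with earlier results of these data known. Full statistics are given for the called members of largest difference, or for the 3 of smallest p where fewer than 3 were called. Up to 4 called genes of each further list are named, or the 2 of smallest p in a list with none. Members named for their role or pattern beyond this were chosen after their values were seen. For the marker lists medians are given, with counts and genes for some. Atg7 and Lgr5 were named as checks of the labels and Mki67 and Cdkn1a as cell cycle readouts. Alternatives covered the filter, groups in the fit, a block on title numbers, further normalization, array weights, array SD as a covariate, the prior and the omission of samples.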

Additional observations from a re-analysis of the deposited data

Results flagged for a closer look

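Of 76 sets of values checked (each of the 38 tested genes in both Low groups, the groups with 4 samples), 1 held a sample far from the others. Uhrf1 was 7.13 in Atg7KO-Low-387, against 8.24 to 8.37 in the other Atg7KO-Low samples, and that gap made up 0.895 of the group's range. Chance alone sets apart a sample in about 1 in 20 such groups. Atg7KO-Low-387 also held the lowest value of its group for 24 of the 38 genes. With this sample the Uhrf1 difference was -0.18 in Atg7KO-High against Atg7KO-Low samples and -0.05 in Atg7KO-Low against WT-Low samples. Without it the differences were -0.47 (limma adjusted p = 0.210) and 0.24 (limma adjusted p = 0.849), so the second changed sign, with no call either way.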

How the results depend on the processing

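Of the counts and medians over the 38 genes, 271 of 300 values under alternatives stayed near the reported one (a count within 1.5 times, a median within 0.195, the SD of the genes' mean between samples), and 0 called values reversed. These values include counts of called genes, most of which were 0 in the reported fit. The 0.195 is also wider than the reported medians of 0.08 in Atg7KO-Low against WT-Low and -0.01 in Atg7KO-High against Atg7KO-Low samples. In the latter the medians under alternatives ran from -0.11 to 0.25, and 18 of 19 counted as near. The tally therefore says little on how stable the medians are. Of single named genes, 277 of 300 stayed on their side of the threshold. In Atg7KO-High against WT-High samples 5 genes were called lower with array weights, the median was -0.092 with array SD as a covariate and -0.13 without both Atg7KO-High-356 and WT-High-411 (added after the data were seen), and it ran from -0.54 to -0.21 as single samples were left out. In Atg7KO-High against Atg7KO-Low samples the genes called lower were 2 of the 38 with the stricter filter (where 1058 of all 9851 genes were called lower), 0 with only these groups in the fit, and 0 without both narrow arrays (Atg7KO-High-356 and WT-Low-411) or without both Atg7KO-High-356 and WT-High-411. They were 0, with 1 called higher (Pold3), after a further quantile normalization, after cyclic loess and with array SD as a covariate, which gave a median of 0.25. In this order 842, 763 and 264 of all 15873 genes were called higher. Leaving out single samples gave 0 to 2 lower and 0 to 1 higher. In WT-High against WT-Low samples 6 were called higher with array weights, and 0 to 1 as samples were left out (1, Chaf1a, without WT-Low-407). The interaction's median was -0.31 after a further quantile normalization, -0.30 after cyclic loess, -0.13 with array SD as a covariate, -0.34 without both narrow arrays, -0.23 without both Atg7KO-High-356 and WT-High-411, and -0.71 to -0.33 as single samples were left out. The cause of these shifts was not tested. Median centring moved the median of all genes from -0.03 to -0.14 in Atg7KO-High against WT-High samples, where that of the 38 genes was -0.48. Deviations of samples that share a title number in both gates had correlations of 0.115, 0.182 and -0.040. Among samples of the same genotype in the other gate, 4 of the 6 correlated best with their own number. Across genotypes Atg7KO-High-356 correlated more with WT-Low-411 (0.145), and Atg7KO-Low-356 more with WT-Low-341 (0.158), than with each other (0.115). These values do not settle whether a title number pairs samples, and the labels do not say so. With title number as a replicate block, 2 of the 38 genes were called lower in Atg7KO-High against Atg7KO-Low samples, Slbp (limma adjusted p = 0.0201) and Rrm2 (limma adjusted p = 0.0484). In that fit 1138 of all 15873 genes were called lower. With the same block 0 members were called in the other comparisons. The number of arrays limits the precision.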

Other observations

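Of 19 tested regulators of entry into S phase (G1/S regulators), 4 fell in Atg7KO-High against Atg7KO-Low samples (21.1%, against 6.44% of all genes) and 0 rose (against 4.48%), with 14 of 19 below 0 and a median of -0.25. In WT-High against WT-Low samples 2 fell (10.5%) and 0 rose (against 1.22% of all genes each way), but 13 of 19 were above 0, with a median of 0.16. Cdkn1a, the cyclin-dependent kinase inhibitor p21, fell by 2.33 in Atg7KO and by 1.34 in WT (limma adjusted p = 0.000138 and 0.00884). Rb1, the retinoblastoma protein that restrains E2F, fell by 1.33 in Atg7KO and by 1.05 in WT. E2f2 (-1.10), an E2F activator, and Ccne1 (-0.70), cyclin E1, fell in Atg7KO.

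Between genotypes limma called 0 of the 19. At an unadjusted p under 0.05, 5 were lower in the High gate (26.3%, against 9.88% of all genes) and 1 was lower in the Low gate (5.26%, against 3.40%). In either gate 0 were higher. The smallest p belonged to Cdkn1a and E2f2 (-0.61) in the High gate and to Rbl1 (-0.44) and Cdk2 (-0.21) in the Low gate, with medians over the list of -0.38 and 0.04. Cdkn1a read 6.11, 6.56 and 7.08 in Atg7KO-High samples, against 7.63, 7.61 and 7.51 in WT-High samples. The groups do not overlap, and the difference was -1.003 (SE 0.25, limma adjusted p = 0.133). In the Low gate Cdkn1a averaged 8.92 ± 0.24 in Atg7KO and 8.93 ± 0.37 in WT samples (SD, n = 4 each). In the interaction 17 of the 19 were below 0, with a median of -0.36 and 0 called, and E2f2 (-0.80) and Cdkn1a (-0.99) had the smallest p. The inhibitor thus read lower in Atg7KO-High samples in the same comparison in which most replication genes also read lower, neither of them called.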
